A study of Mus musculus with 8 samples.

Results

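The neurotrophin ligands *Bdnf* and *Ntf3* and the receptors *Ngfr*, *Ntrk2*, *Ntrk3* and *Sort1* were examined in primary murine articular chondrocytes treated with interleukin-1β (IL-1β) or vehicle. The genes were chosen by name, and all 6 were found among the 54658 gene symbols of the count table. The cells were isolated from the femoral heads of wild-type mice at 3 weeks of age and cultured in serum-containing medium. RNA-Seq of total RNA covered 4 samples given IL-1β at 1 ng/mL for 24 h and 4 given vehicle for the same time. The labels do not state whether the 4 samples of a group came from separate mice or cultures, so the p-values measure only the spread between these samples.

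Neurotrophins are secreted growth factors that are made as longer precursors and act mainly on neurons. Their mature forms bind Trk receptor tyrosine kinases: *Ntrk2* encodes TrkB, the receptor of brain-derived neurotrophic factor (BDNF) and neurotrophin-4, and *Ntrk3* encodes TrkC, the receptor of neurotrophin-3 (NT-3). The p75 receptor, encoded by *Ngfr*, binds every neurotrophin and, together with sortilin, the product of *Sort1*, also binds the precursors.

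With IL-1β, *Ntrk2* fell 2.58-fold and *Ntf3*, fitted without the filter on low counts, fell 2.99-fold, whereas *Bdnf*, *Ngfr* and *Sort1* did not pass the test. *Ntrk3* lay at the limit of detection in both groups. Total counts were 10992355 to 17456063 per sample, and a count of 3, used here as the detection limit, equals 0.173 to 0.270 CPM (counts scaled to the size of the library). These limits cover counting error only. A single row, *Gm26917*, took 13.2 to 14.6% of each sample's counts. Abundances are CPM scaled with edgeR's TMM factors (0.984 to 1.01), given as mean ± SD (n = 4 per group). The 14404 genes that exceeded a CPM of 1 in 4 or more samples entered edgeR's quasi-likelihood test. Called genes had a Benjamini-Hochberg adjusted p under 0.05 together with a log2 fold change beyond 1 in either direction.

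Of the 6 genes, 4 passed the filter on low counts. *Ngfr* lay just inside it, with a CPM above 1 in 6 samples, and *Ntf3* lay just outside it, with a CPM above 1 in 3 samples. Among the 4 tested genes, *Ntrk2* was called, against 5.21% of all genes tested (2.35% lower and 2.86% higher). It was called as lower, and 0 members were called as higher (edgeR, with 0 genes at an unadjusted p under 0.05 in this direction, and 0 called by DESeq2). The 4 tested genes had a median log2 fold change of 0.07, against -0.00 over all genes tested.

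**Figure D1:**
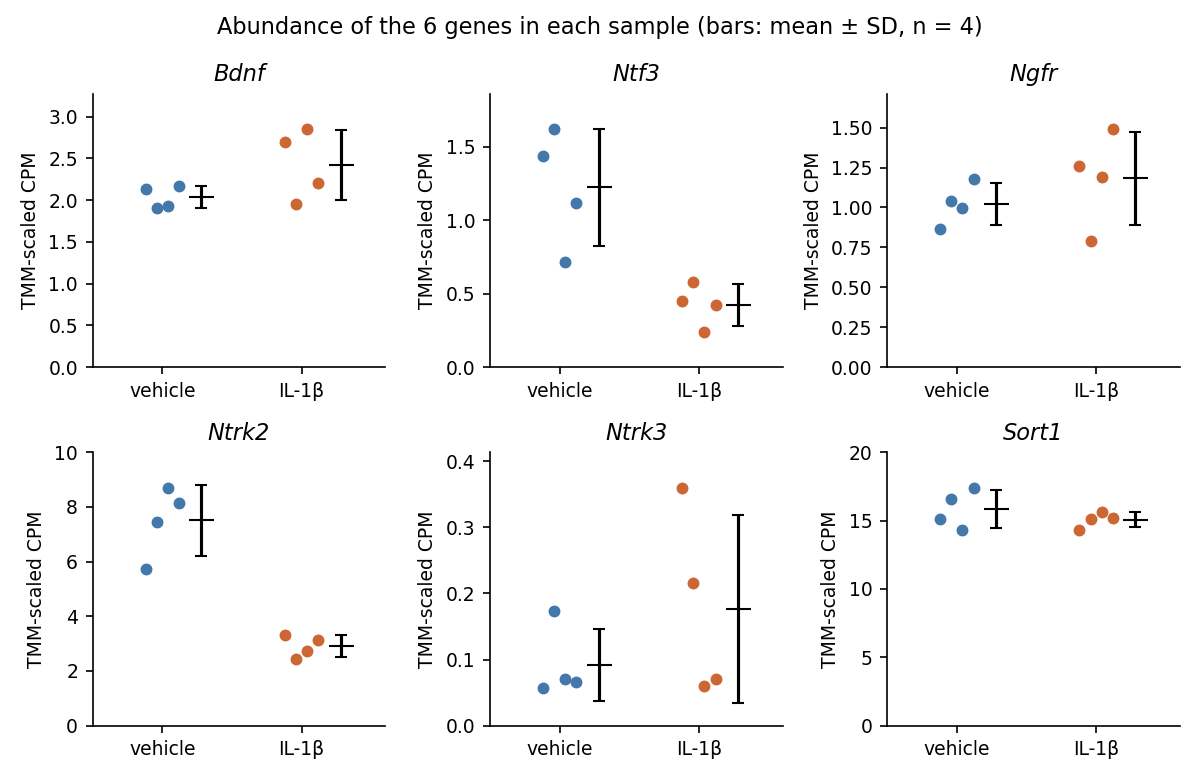
TMM-scaled CPM (y axis, from 0, with its own scale in each panel) of the 6 genes in the 4 vehicle samples (blue points) and the 4 IL-1β samples (orange points). Black bars are the mean and SD of each group. In the panels of *Ntrk2* and *Ntf3* all IL-1β points lie below all vehicle points, and in the other panels the groups overlap.

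The ligand *Bdnf* (ENSMUSG00000048482.14, chr2:109674700-109727007, plus strand, GRCm38) encodes BDNF. Its counts were 37, 33, 27 and 33 in vehicle replicates 1 to 4 and 30, 27, 48 and 31 in IL-1β replicates 1 to 4. The vehicle samples averaged 2.03 ± 0.137 CPM and the IL-1β samples 2.42 ± 0.424 CPM. The groups overlapped, with IL-1β replicates 1, 3 and 4 above every vehicle sample and IL-1β replicate 2 within the vehicle range. Replicate 4 (2.20 CPM) stood just above the highest vehicle sample (2.17 CPM). The log2 fold change of *Bdnf* was 0.26 (95% confidence interval -0.13 to 0.64, edgeR adjusted p = 0.306), an interval that leaves room for a small change in either direction. Without IL-1β replicate 2, the difference in mean CPM rose from 0.391 to 0.553 (exact permutation test, two-sided, p = 0.114 with it and 0.0286 without it). This 0.0286 is the smallest p that 3 samples against 4 allow. With any other single sample left out, the exact permutation p was 0.114 to 0.257. The edgeR adjusted p without IL-1β replicate 2 was 0.169. Of the exon bases of *Bdnf*, 14.4% are shared with *Gm45346* on the opposite strand, a gene with 0 to 1 counts per sample. The strand setting of the counting is not given in the sources used here, so reads of the shared bases cannot be told apart.

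*Bdnf* has several first exons, each with its own start site, and gene-level counts add up the transcripts from all of them. RefSeq (GRCm38.p6) gives 7 promoter windows for *Bdnf*, each from 250 bases before to 50 bases after a start site, and 11 windows over the members, with 2 for *Ntf3*, 1 for *Ngfr* and 1 for *Ntrk2*. The 11 windows do not cover *Ntrk3* and *Sort1*. A window upstream of an internal *Bdnf* start site is shown because it holds the reverse complement of TGACGT, the core of the cAMP response element through which neuronal activity is known to drive *Bdnf*. The match, in capitals, starts 36 bases before that start site.

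*Bdnf*, chr2:109692388-109692417, plus strand: atatgacagctcACGTCAaggcagcgtgga

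TGACGT was found, on either strand, in 7.51% of 32851 promoter windows and in 1 of the 11 windows of the members. For NF-κB, the main transcription factor downstream of IL-1β, only 1 narrow form of the site was searched, not its full consensus. This form was found on either strand in 0.411% of all windows and in 0 of the 11. A form this rare has little chance of a match in 11 windows. The 0 therefore does not show that these windows lack NF-κB sites. TGANTCA is a loose form of the AP-1 site: it allows any middle base, where the AP-1 consensus has C or G. This loose form was found in 7.81% of all windows and in 1 of the 11, at another *Bdnf* start site. There it reads TGAATCA, with A in the middle, and so does not match the stricter consensus. The TGACGT and TGANTCA matches lie in different windows and do not overlap. A match is a description of the sequence only.

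The ligand *Ntf3* (ENSMUSG00000049107.13, chr6:126101412-126166910, minus strand) encodes NT-3. It had 25, 28, 10 and 17 counts in vehicle replicates 1 to 4 and 5, 8, 4 and 6 counts in IL-1β replicates 1 to 4. In CPM the highest IL-1β sample (replicate 2, 0.577) stayed under the lowest vehicle sample (replicate 3, 0.713), so that the groups did not overlap. Mean abundance was 1.22 ± 0.398 CPM in the vehicle group and 0.423 ± 0.140 CPM in the IL-1β group (exact permutation test of the difference, two-sided, p = 0.0286, the smallest that 4 samples against 4 allow). With any 1 IL-1β sample left out, the exact permutation p was 0.0571. Fitted without the filter on low counts, over 32379 genes, the log2 fold change of *Ntf3* was -1.58 (standard error 0.353, 95% confidence interval -2.27 to -0.89, edgeR adjusted p = 8.2e-05). In that fit 3.72% of genes were called, and 1.76% were called as lower. Over the fits that lacked 1 sample, the value lay between -1.77 and -1.35, with edgeR adjusted p-values of 1.47e-05 to 0.00264. DESeq2 without the filter gave -1.57 with a weaker adjusted p of 0.00417. The edgeR fit without the filter also gave *Ntrk2* a far smaller adjusted p (1.49e-19) than the main fit (1.09e-08), at a similar standard error (0.146 and 0.149). *Ntf3* stood above 3 counts in every sample, with 23 reads in all in the IL-1β group and 80 in the vehicle group.

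The receptor gene *Ntrk2* (ENSMUSG00000055254.15, chr13:58806569-59133970, plus strand) encodes TrkB. Counts were 99, 129, 122 and 124 in vehicle replicates 1 to 4, against 37, 34, 46 and 44 in IL-1β replicates 1 to 4. In CPM these were 5.71, 7.45, 8.70 and 8.15 with vehicle and 3.33, 2.45, 2.73 and 3.12 with IL-1β. The lowest vehicle sample, replicate 1, stood above the highest IL-1β sample, replicate 1. Such a separation downward was found in 18.2% of all genes tested. The mean of *Ntrk2* was 7.50 ± 1.30 CPM with vehicle against 2.91 ± 0.394 CPM with IL-1β. This gave a log2 fold change of -1.37 (standard error 0.149, 95% confidence interval -1.67 to -1.06, edgeR adjusted p = 1.09e-08). Of the 14404 genes tested, 171 (1.19%) had a lower log2 fold change. The fall did not pass edgeR's glmTreat, which asks whether a log2 fold change exceeds 1 in size (adjusted p = 0.0830). This p is adjusted over the 14404 genes tested, whereas the confidence interval is for *Ntrk2* alone and is not adjusted. In RNA from whole cultures, fewer cells that express a gene and less RNA per cell cannot be told apart.

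*Ntrk2* is annotated with 10 transcripts, of which 7 are coding, and TrkB is known to be made in a full-length form with a kinase domain and in truncated forms without it. The counts do not separate these forms. Coding transcripts of *Ntrk2* are 2284 to 8744 bases long, and the deposited length of 19292 bases is that of all exons together.

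The receptor gene *Ntrk3* (ENSMUSG00000059146.12, chr7:78175959-78738012, minus strand) encodes TrkC. It had 1, 3, 1 and 1 counts in vehicle replicates 1 to 4 and 4, 3, 1 and 1 counts in IL-1β replicates 1 to 4. Thus 7 of the 8 samples lay at or under 3 counts, and a difference between the groups was not detectable at this depth. The sums were 6 reads with vehicle and 9 reads with IL-1β, and no fold change is given. *Ntrk3* was the lowest of the 6 genes in both groups.

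*Ngfr* (ENSMUSG00000000120.6, chr11:95568818-95587735, minus strand) encodes the p75 receptor. Counts were 15, 18, 14 and 18 with vehicle and 14, 11, 20 and 21 with IL-1β, in the order of the replicates. The IL-1β samples held both the lowest and the highest CPM of the 8, 0.793 in replicate 2 and 1.49 in replicate 4. The vehicle mean was 1.02 ± 0.131 CPM and the IL-1β mean 1.18 ± 0.290 CPM (log2 fold change 0.21, 95% confidence interval -0.32 to 0.75, edgeR adjusted p = 0.569). The interval spans 0 and leaves room for a change of either sign.

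*Sort1* (ENSMUSG00000068747.14, chr3:108284082-108361511, plus strand) encodes sortilin, which besides binding proneurotrophins sorts proteins between the Golgi and lysosomes. It was the most deeply covered of the 6 genes. Counts were 261, 288, 200 and 265 in vehicle replicates 1 to 4 and 159, 210, 263 and 215 in IL-1β replicates 1 to 4. In CPM the vehicle samples spanned 14.3 to 17.4 and the IL-1β samples 14.3 to 15.6, and the groups overlapped. The log2 fold change of *Sort1* was -0.07 (standard error 0.0789, 95% confidence interval -0.23 to 0.09, edgeR adjusted p = 0.541). This interval is the narrowest of the tested members and lies within the thresholds of 1 and -1. Of the exon bases of *Sort1*, 4.47% are shared with *Gm12523* on the opposite strand, which had 0 to 5 counts per sample.

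**Figure D2:**
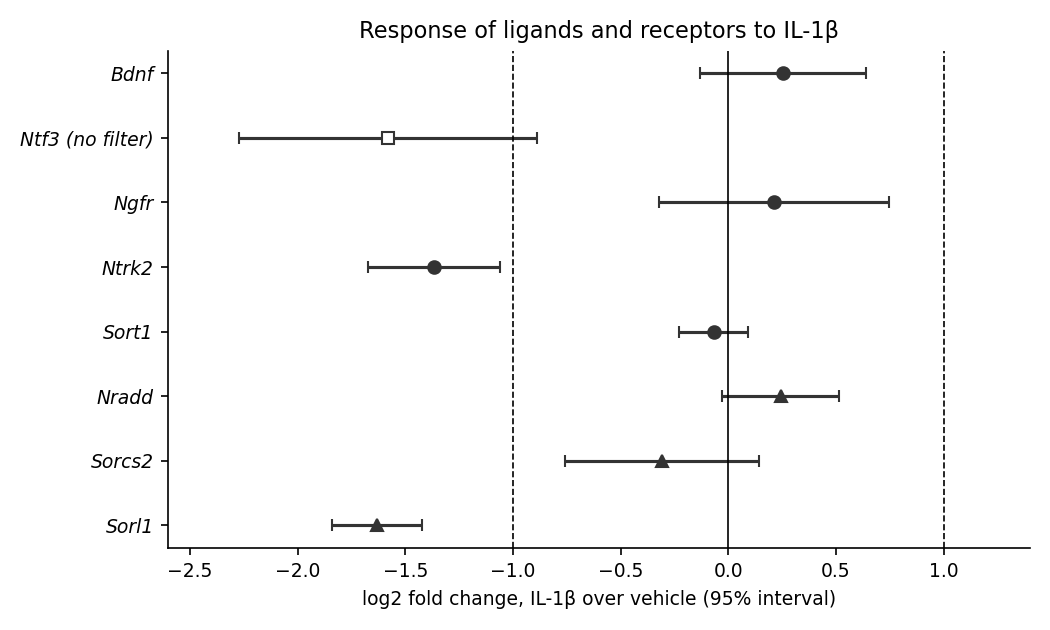
Log2 fold change of IL-1β over vehicle (x axis) with its 95% confidence interval (lines) for the tested members (circles), *Ntf3* from the fit without a filter (open square) and the tested genes of the list of other ligands and receptors (triangles). Dashed lines mark 1 and -1, and the intervals are for single genes, not adjusted for the number of genes tested. *Ntrk2* (-1.37) and *Sorl1* (-1.63) have intervals that lie wholly below -1, the interval of *Ntf3* crosses it, and those of *Bdnf*, *Ngfr* and *Sort1* hold 0.

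The level of each gene was compared with that of the others per kilobase of its deposited length. With vehicle, *Sort1* was highest at 2.09 ± 0.190 CPM per kilobase, followed by *Ntf3* (0.713 ± 0.232), *Ntrk2* (0.389 ± 0.0673), *Bdnf* (0.327 ± 0.0220), *Ngfr* (0.296 ± 0.0380) and *Ntrk3* (0.00305 ± 0.00181). *Sort1* stood clear of the next gene and *Ntrk3* of the gene before it, while the samples of each neighbouring pair from *Ntf3* down to *Ngfr* overlapped. Among all genes tested, 13.7% had a lower vehicle level per kilobase than *Ntf3*, against 6.17% for *Ntrk2*, 4.68% for *Bdnf* and 3.90% for *Ngfr*. For *Sort1* the share was 32.5%.

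With IL-1β the order of mean CPM per kilobase was *Sort1* (1.99 ± 0.0720), *Bdnf* (0.390 ± 0.0681), *Ngfr* (0.343 ± 0.0841), *Ntf3* (0.247 ± 0.0817), *Ntrk2* (0.151 ± 0.0204) and *Ntrk3* (0.00586 ± 0.00470). *Ntf3* and *Ntrk2* thus stood behind *Bdnf* and *Ngfr*, and neighbours overlapped from *Bdnf* down to *Ntrk2*. The order in both groups depends on the length used: with vehicle, per kilobase of the longest coding transcript, *Ntrk2* had 0.858 ± 0.149 and *Ntf3* had 0.825 ± 0.268, so that their means changed places within overlapping ranges. *Bdnf* (0.448 to 0.509) then no longer overlapped *Ngfr* (0.251 to 0.342). On this length the IL-1β mean of *Ntrk2* (0.333) also stood above that of *Ntf3* (0.285), within overlapping ranges, and *Bdnf* (0.457 to 0.668) stood clear of *Ngfr* (0.230 to 0.432).

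**Figure D3:**
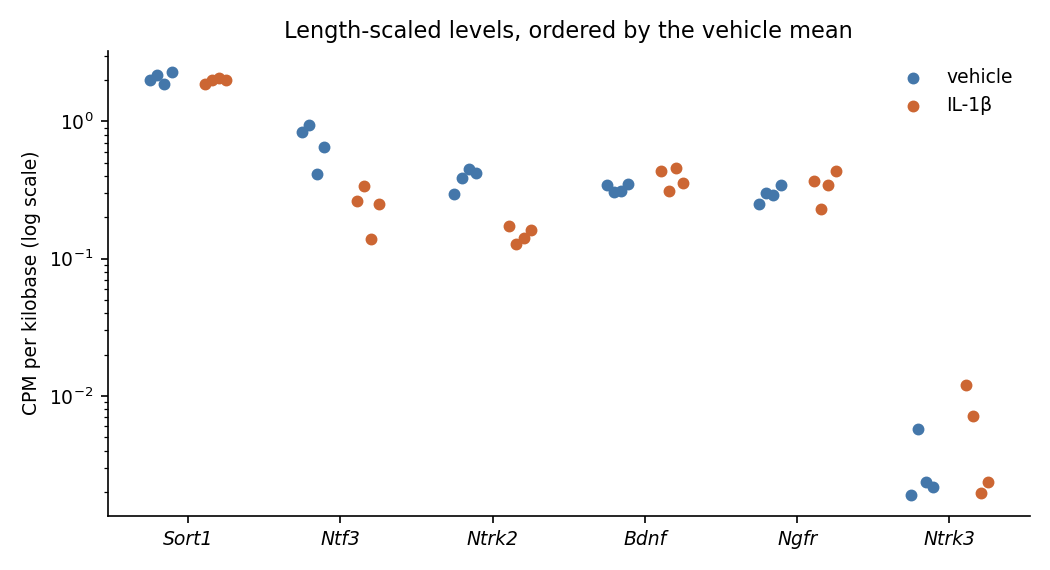
TMM-scaled CPM per kilobase of deposited gene length (y axis, log scale) of the 6 genes, ordered by the vehicle mean, in the vehicle samples (blue) and the IL-1β samples (orange). *Sort1* stays near 2 in both groups, *Ntf3* and *Ntrk2* are lower with IL-1β, and *Ntrk3* lies far below the rest, from single reads.

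*Ntf5* and 5 relatives of sortilin and p75 were listed beside the members. *Ntf5*, which encodes neurotrophin-4, the other ligand of TrkB, did not pass the filter. It had 19, 22, 15 and 11 counts with vehicle and 8, 7, 8 and 3 with IL-1β. In CPM the IL-1β samples spanned 0.213 to 0.721 and the vehicle samples 0.723 to 1.27, so that the groups were only just apart. Fitted with low counts kept, *Ntf5* had a log2 fold change of -1.16 (standard error 0.358, edgeR adjusted p = 0.00875). *Sorcs1* had 0 or 1 count and *Sorcs3* 0 to 5 counts, so that these sortilin relatives lay at or near the limit of 3 counts. *Sorcs2* (1.77 ± 0.378 CPM in vehicle and 1.44 ± 0.156 in IL-1β samples) and the p75 homologue *Nradd* (4.81 ± 0.320 and 5.78 ± 0.991) had edgeR adjusted p-values of 0.291 and 0.152.

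*Sorl1*, which encodes the sortilin relative SorLA, a sorting receptor of the VPS10 domain family like sortilin, fell from 19.4 ± 1.68 to 6.29 ± 0.944 CPM. Its counts were 300, 330, 281 and 324 with vehicle and 66, 99, 86 and 98 with IL-1β, without overlap of the groups. The log2 fold change was -1.63 (standard error 0.102, edgeR adjusted p = 8.26e-14). *Sort1* and *Sorl1* thus had confidence intervals of -0.23 to 0.09 and -1.84 to -1.42. The 2 responses were not tested against each other.

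**Figure D4:**
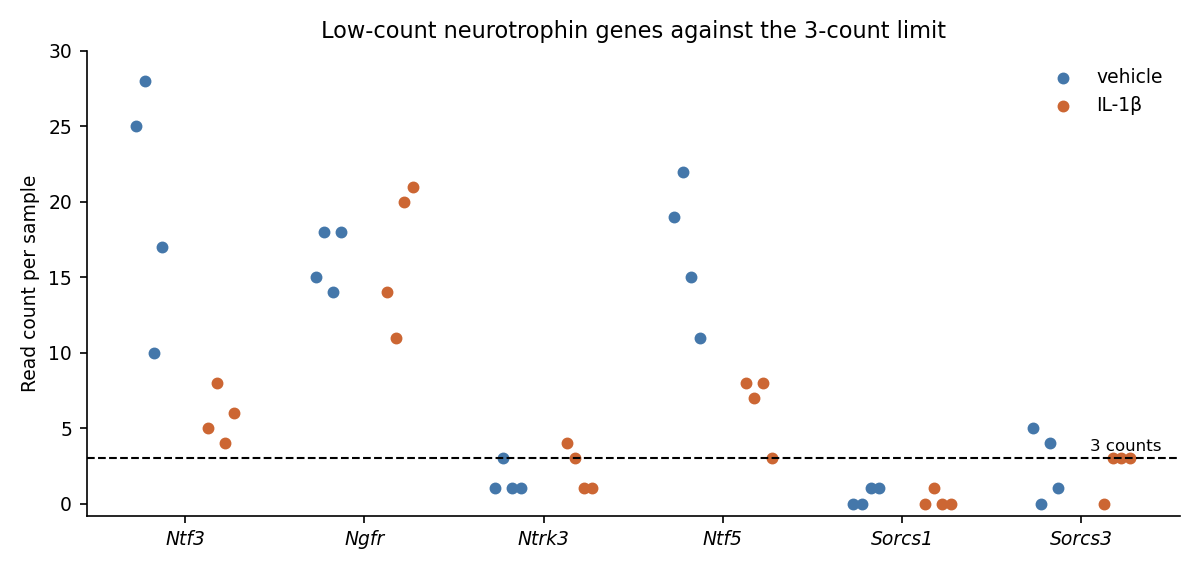
Read counts per sample (y axis) of low-count genes among the members and the list of other ligands and receptors, in vehicle (blue) and IL-1β samples (orange). The dashed line marks 3 counts: *Ntrk3*, *Sorcs1* and *Sorcs3* lie at or near it, whereas *Ngfr* lies above it in all samples, as does *Ntf3*.

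Other genes of neurotrophin signaling were taken from lists of 69 symbols in all, of which 68 had a row (*Ngfrap1*, an older symbol of *Bex3*, had none) and 57 passed the filter. Of these 57, 2 were called as higher and 2 as lower, against backgrounds of 2.86% and 2.35% over all genes tested. One of the 2 called as higher, *Plat*, entered the test through its IL-1β samples alone, where it is high, and 1 is left without it. At an adjusted p under 0.05 without a fold threshold, 24 were higher and 10 were lower, against 40.2% of all genes tested (20.4% higher and 19.8% lower). Their median log2 fold change was 0.09, against -0.00 over all genes tested.

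Of 5 tested genes that process neurotrophin precursors or activate the enzymes that do, 2 were higher and 3 lower at an adjusted p under 0.05. Over all genes tested, 20.4% were higher and 19.8% lower at this limit. *Pcsk6*, a proprotein convertase of the furin family and the most abundant of the list per length, had 269 ± 7.67 CPM with vehicle and fell to 99.8 ± 5.81 (log2 fold change -1.43, edgeR adjusted p = 5.44e-23). *Plat*, which encodes tissue plasminogen activator, had 6, 3, 9 and 11 counts in vehicle samples and 24, 18, 27 and 25 in IL-1β samples (log2 fold change 1.87, standard error 0.320, edgeR adjusted p = 2.09e-05). *Plat* passed the filter through its IL-1β samples alone and was not tested once any of them was left out. *Furin* itself had 217 ± 3.00 CPM in vehicle and 176 ± 10.7 CPM in IL-1β samples (log2 fold change -0.30, edgeR adjusted p = 4.46e-08). *Plg*, which encodes plasminogen, was at 0 counts in all samples, as was *Mmp7*.

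Of 21 tested adaptors and signaling partners of Trk receptors, 11 were higher and 4 lower at an adjusted p under 0.05, and their median log2 fold change was 0.11. Over all genes tested, 20.4% were higher and 19.8% lower at this limit, with a median of -0.00. One of the 4 lower adaptors, *Shc2* (log2 fold change -0.87), passed the filter through its vehicle samples alone (1.16 to 1.35 CPM, against 0.433 to 0.901 CPM with IL-1β). *Gab2*, a docking protein downstream of receptor tyrosine kinases, was the called gene of this list, with 4.83 ± 0.426 CPM in vehicle samples against 10.2 ± 0.977 CPM in IL-1β samples. Its log2 fold change was 1.06 (standard error 0.113, edgeR adjusted p = 6.73e-09), close to the threshold, and it was not called by glmTreat or with 1 factor of unwanted variation. The most abundant per length was *Shc1*, an adaptor that couples Trk receptors to Ras, with a log2 fold change of 0.29. Most of these adaptors also serve other receptors.

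Of 17 tested p75 adaptors and receptor-cleaving enzymes, 6 were higher and 1 was lower at an adjusted p under 0.05. The shares over all genes tested were 20.4% higher and 19.8% lower. With the fold threshold, 0 of the 17 were called by edgeR or by DESeq2 (12 at an unadjusted p under 0.05, of which 7 were higher and 5 lower). *Bex3*, an adaptor of p75 and the most abundant of the list per length, had 36.8 ± 2.45 CPM in vehicle and 31.1 ± 1.70 CPM in IL-1β samples (log2 fold change -0.24). Of 11 tested genes of sortilin cargo and sorting, 5 were higher and 1 was lower, against the same shares of all genes tested. With the fold threshold, 0 of the 11 were called by either tool (5 higher and 1 lower at an unadjusted p under 0.05). *Grn*, which encodes progranulin, a ligand of sortilin, was the most abundant of these per length and had a log2 fold change of 0.25 (vehicle 225 ± 5.54 CPM, IL-1β 267 ± 9.35 CPM).

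**Figure D5:**
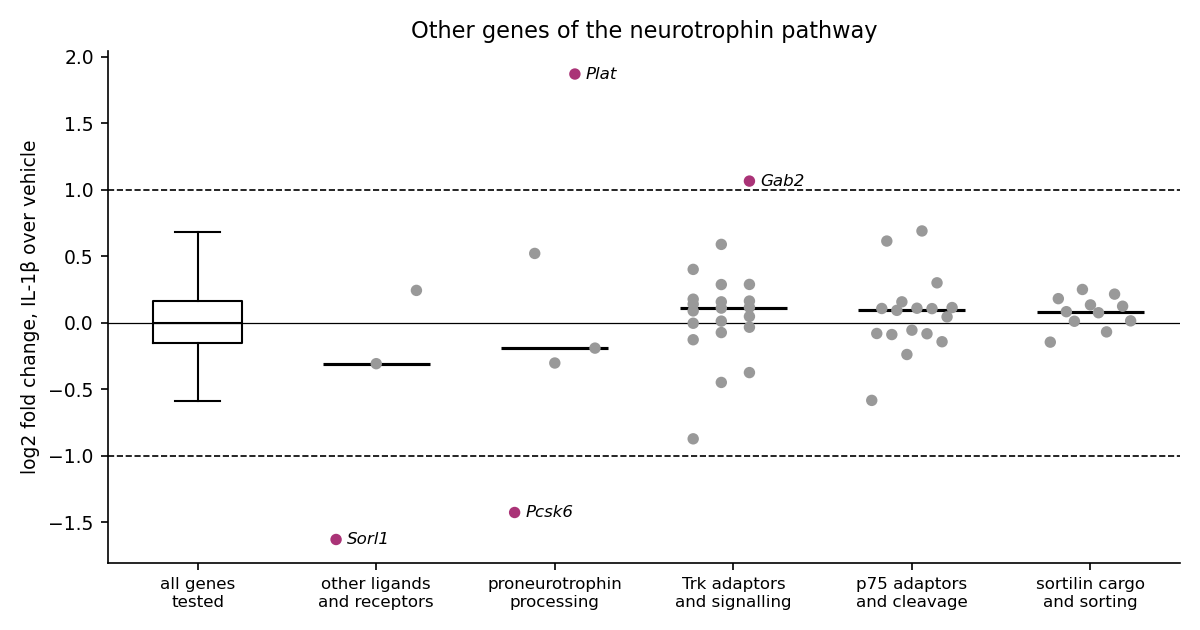
Log2 fold change of IL-1β over vehicle (y axis) for all 14404 genes tested (box: quartiles and median, whiskers: 5th to 95th percentile) and for the tested genes of the 5 pathway lists (points, with a bar at the median). Called genes are drawn in purple and named: *Sorl1* and *Pcsk6* lie below -1, and *Plat* and *Gab2* lie above 1.

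The profiles most like those of the members over the 8 samples were found by the distance between log2(CPM + 1) values centred on each gene's mean. For *Ntrk2* they were *Colgalt2*, a collagen galactosyltransferase (Pearson r = 0.983, 10.7 CPM in vehicle and 4.10 CPM in IL-1β samples), and *Apln*, which encodes the peptide apelin (r = 0.982, 14.4 and 5.30 CPM). For *Sort1* they were *Smpd2* (r = 0.951) and *Trmt112* (r = 0.954), for *Bdnf* they were *Mad2l2* (r = 0.949) and *Usp54* (r = 0.947), and for *Ngfr* they were *Tbxas1* (r = 0.938) and *Rpl32l* (r = 0.912). These values are descriptions over 8 samples in 2 groups that share libraries and depth, and the nearest of 14404 genes is close by selection.

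Markers of other cell types that use neurotrophins were set beside these results. All 7 chondrocyte markers were detected, with a summed level of 14200 to 14800 CPM in the vehicle samples and 3570 to 3940 CPM in the IL-1β samples. Each of the 7 was called as lower, with log2 fold changes of -2.37 to -1.08, in the same direction as *Ntrk2*. Over all genes tested, 2.35% were called as lower and 19.8% were lower at an adjusted p under 0.05. A direction shared with *Ntrk2* is thus not particular to the markers named here. Of 6 neuronal markers, 5 were at or under 3 counts in all 8 samples, with *Snap25* and *Nefl* at 0. The other, *Tubb3*, had 8.58 ± 0.886 CPM in vehicle and 8.40 ± 0.748 CPM in IL-1β samples (log2 fold change -0.04, edgeR adjusted p = 0.795). It made up nearly all of the neuronal sum of 7.69 to 9.65 CPM (vehicle) and 7.73 to 9.16 CPM (IL-1β). The 7 Schwann cell and glial markers summed to 7.91 to 8.94 CPM (vehicle) and 6.38 to 9.09 CPM (IL-1β), and of their 3 tested genes *Mbp* fell (log2 fold change -0.77, edgeR adjusted p = 0.0147). *Cdh19*, a Schwann cell marker that did not pass the filter, had 20, 17, 15 and 12 counts with vehicle and 3, 5, 3 and 2 with IL-1β, the same direction as *Ntrk2* and *Ntf3*. The 5 endothelial markers summed to 0.865 to 1.71 CPM (vehicle) and 1.06 to 1.66 CPM (IL-1β), and *Cdh5* was at or under 3 counts throughout. The 5 mural cell markers summed to 1030 to 1110 CPM (vehicle) and 498 to 560 CPM (IL-1β). All 3 mural markers that were tested fell (*Cspg4*, *Pdgfrb* and *Acta2*), whereas *Rgs5* had 0 to 6 counts per sample. The 5 leukocyte markers summed to 11.5 to 12.6 CPM (vehicle) and 15.9 to 18.9 CPM (IL-1β). Most of this sum was *Cd68*, with a mean of 9.48 CPM in vehicle and 15.0 CPM in IL-1β samples. Among the 2 that were tested, *Cd68* was higher (log2 fold change 0.67) and *Lyz2* lower (-0.60). *Ptprc* lay at or under 3 counts in 7 of the 8 samples and *Adgre1* in all 8. The 5 markers of marrow stroma and fibroblasts summed to 53.6 to 57.7 CPM (vehicle) and 55.0 to 59.2 CPM (IL-1β), but the 3 tested ones moved apart. *Lepr* (log2 fold change -0.90, edgeR adjusted p = 9.58e-05) and *Prrx1* (-0.80, adjusted p = 2.16e-10) fell, in the direction of *Ntrk2*, and *Pdgfra* rose (0.58, adjusted p = 4.32e-11). The part of the cells that carry these markers in the fall of *Ntrk2* and *Ntf3* was not tested.

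The study also looked for targets of miR-146a-5p, a microRNA known to be induced by inflammatory signals. The mature sequence (RefSeq, GRCm38.p6, chr11:43374435-43374456, minus strand) is shown with its seed, bases 2 to 8, in capitals, since a target site in a 3′ UTR pairs with these bases.

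miR-146a-5p: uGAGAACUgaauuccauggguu

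Sites were searched as AGTTCTC (7mer), AGTTCTCA (8mer, which contains both 7mers) or GTTCTCA (7mer ending in A) in the annotated 3′ UTRs of coding transcripts. In the longest coding transcript, at least 1 site was found in *Ntrk2*, *Ntrk3* and *Sort1* and none in *Bdnf*, *Ntf3* and *Ngfr*, against 20.8% of 11922 tested genes with a 3′ UTR. The 3′ UTRs of these transcripts were 5617 bases long for *Ntrk2*, 16600 for *Ntrk3* and 4200 for *Sort1*, against 2855 for *Bdnf*, 1985 for *Ngfr* and 314 for *Ntf3*. The sites of *Ntrk2*, the member that fell, and of *Sort1*, the tested member with the narrowest interval around 0, are shown with the match in capitals.

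*Ntrk2*, 8mer at chr13:59130347-59130354: ctccgagagccAGTTCTCAcaatgaaactt

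*Ntrk2*, 7mer ending in A at chr13:59132901-59132907: taaagttcaggGTTCTCAactcttttcagc

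*Ntrk2*, 7mer at chr13:58933189-58933195: tacagagctgcAGTTCTCtagtgtgaatag

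*Sort1*, 8mer at chr3:108360982-108360989: attcctagtgcAGTTCTCAttctccgcatg

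Each *Ntrk2* site lay in 1 of 7 coding transcripts with a 3′ UTR, and the third lay in another transcript than the longest, whereas the 8mer of *Sort1* lay in both of its coding transcripts. *Ntf3*, the other gene that fell, held no site in its 3′ UTR. A match is a description of the sequence, and pairing with miR-146a-5p was not measured in these libraries.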

How the data were processed

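RNA-Seq of 8 samples was used, 4 per group, grouped by the treatment in their labels. The authors removed adapters (cutadapt), aligned the reads to mm10 (GRCm38) using STAR and GENCODE vM20, and obtained gene counts from featureCounts. The counts deposited are unscaled whole numbers. A correction with RUVseq is named in the methods, and whether these counts were taken before or after it is not given in the sources used here. The gene lengths the authors deposited (bases, unit: other) equalled the summed exon length in GENCODE vM21 for all 6 members, and positions are from vM21.

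TMM-normalized counts were tested with edgeR 4.0.16 (limma 3.58.1, R 4.3.3), with treatment as the only term. Single genes also had an exact permutation test over samples. In simulated data for this comparison, with 200 of 14404 genes changed by a log2 fold change of 2, edgeR and DESeq2 (1.42.0) recovered 100% with 0 false calls. The simulation used the same dispersion for every gene, only genes that passed the filter, and no change near the threshold of 1. It therefore does not bear on the calls of *Ntrk2* or *Ntf3*. The seed search was right for 4 of 4 constructed sequences. Replicates differed by more than counting error (chi-square per degree of freedom 1.98 to 6.34). Sequences were handled in Python 3.11.15 with pandas 2.3.3 and numpy 2.4.6, and figures drawn with matplotlib 3.10.9.

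Members, lists and markers were chosen with earlier results of these data known. Genes named were the members, every other listed ligand or receptor, listed genes past both thresholds, the most abundant gene per length of each list, and the 2 nearest profiles of each tested member. *Furin*, *Plg*, *Mmp7*, *Shc2* and single markers were named after their values were seen. Some genes of the pathway are not reported here and were left out of the lists. Alternatives were DESeq2, its size factors, total library size, no filter, a stricter filter, the replicate block, 1 factor of unwanted variation (RUVs) and each sample left out. The fit of *Ntf3* without a filter, glmTreat, the removal of *Gm26917* and the longest coding transcript's length were added after seeing the data.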

Additional observations from a re-analysis of the deposited data

Results flagged for a closer look

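Of 30 groups of 4 values compared (15 genes, each with vehicle and with IL-1β), 2 had a sample set apart from the other 3 by Dixon's test at its 95% level, against 1.5 by chance (1 group in 20). *Ntrk3* had 0.173 CPM in vehicle replicate 2, from 3 reads, against 0.0577 to 0.0713 CPM in the other vehicle samples. *Sorcs1* had 0.0721 CPM in IL-1β replicate 2, from 1 read, with 0 in the other IL-1β samples. At such counts a single read decides the ratio.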

How the results depend on the processing

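The fall of *Ntrk2* kept its direction under every alternative fitted and its call under all but glmTreat (log2 fold change -1.37, adjusted p = 0.0830), which left 0 members called as lower. Without a filter on low counts 2 members, *Ntrk2* and *Ntf3*, were called as lower. *Ntf3*, fitted without a filter, was not called with glmTreat (-1.58, adjusted p = 0.624). With single samples left out, the log2 fold change lay between -1.48 and -1.29 for *Ntrk2*, -1.77 and -1.35 for *Ntf3*, 0.15 and 0.35 for *Bdnf*, 0.08 and 0.36 for *Ngfr*, and -0.12 and -0.02 for *Sort1*. The difference in mean CPM of *Ntf3* then lay between -0.972 and -0.670, with a permutation p of 0.0286 to 0.0571, and that of *Bdnf* between 0.253 and 0.553. Of the pathway genes, 1 in place of 2 was called as higher when all 8 samples had to exceed a CPM of 1 (*Plat* was lost) and under 1 factor of unwanted variation or glmTreat (*Gab2* was lost), and 1 to 2 with single samples left out. With any 1 IL-1β sample left out, *Plat* no longer met the filter. Per kilobase of the longest coding transcript, *Ntrk2* had 0.858 CPM in vehicle and 0.333 in IL-1β samples, *Bdnf* 0.477 and 0.568 CPM, and *Sort1* 2.32 and 2.20 CPM. The replicate numbers are shared by the groups in the labels, but same-numbered samples deviated together with a mean r of -0.0227 across genes, and 1 of 8 samples correlated best with its own number. With the replicate block, the log2 fold change of *Ntrk2* was -1.38 and that of *Ntf3* was -1.52, and no call of a member changed. Depth limits *Ntrk3*, for which 7 of 8 samples lay at or under 3 counts, and leaves *Bdnf* and *Ngfr* with intervals wide enough to hold small changes.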
